A study of Mus musculus with 4 samples.

Results

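The subunits of 2 families of chromatin complexes, SWI/SNF and Polycomb, were followed in engineered mouse neural tissue after electrical stimulation. The members were chosen by gene symbol: 26 SWI/SNF genes, 10 genes of Polycomb repressive complex 2 (PRC2) and 12 of Polycomb repressive complex 1 (PRC1), 48 in all. All 48 were among the 23874 genes of the count table, and all 48 passed the filter on low counts that left 14263 genes for testing.

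The tissue was a gel culture of mouse neural stem cells, in which neurospheres were set in Matrigel under a medium with the N2 and B27 supplements and basic fibroblast growth factor. The EF group received an electric field (150 mV/mm) in daily sessions of 30 min, 3 days in all, and was cultured for 7 days afterwards, and the noEF group was the same kind of tissue without stimulation. Each group had 2 libraries here, although the labels state 3 replicates, and the series design text names suspended neural stem cells as control, so the identity of noEF rests on the sample labels. The labels do not say whether replicates came from separate cultures. The spread behind each p-value is therefore that of these libraries, and it may be technical.

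SWI/SNF complexes use the ATPase SMARCA4 or SMARCA2 to move and evict nucleosomes. When neural progenitors stop dividing and become neurons, the complex is known to exchange several subunits: ACTL6A, PHF10, DPF2 and SS18 give way to ACTL6B, DPF1, DPF3 and SS18L1. PRC2 methylates lysine 27 of histone H3 through EZH2 or EZH1, with SUZ12 and EED as the other obligate parts, and EZH2 is the form typical of dividing progenitors. PRC1 ubiquitinates histone H2A through RNF2 or RING1, paired with a PCGF protein, and its CBX proteins bind the mark that PRC2 leaves.

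Total counts per library were between 33748880 and 34554537. CPM are counts scaled by library size, and before TMM a single count was worth between 0.0289 and 0.0296 CPM. The CPM levels of genes are given after TMM, with factors of 1.0334 and 1.0275 in EF and 0.9647 and 0.9763 in noEF. Of 8 markers of neural progenitors none was at 0, with summed levels of 4960 and 5260 CPM in EF and 6740 and 6340 CPM in noEF. Of those 8, Fabp7 and Sox1 fell and the other 6 did not pass in edgeR, although DESeq2 called 4 lower and 5 were lower at an unadjusted edgeR p under 0.05. The 10 neuronal markers summed to 751 and 726 CPM in EF and 632 and 699 CPM in noEF. Map2 was at 529 and 497 CPM in EF and 411 and 481 CPM in noEF, while Stmn2 had no count and Rbfox3 stayed below 2 CPM. Of the 9 neuronal markers tested, 0 passed edgeR's test in either direction (1 higher and 1 lower at an unadjusted p under 0.05, and 0 called by DESeq2 or limma-voom). Microglial markers summed to between 0.224 and 1.07 CPM, with 4 of 5 at 0 in every library. Markers of fibroblasts and vessels summed to between 1.04 and 2.24 CPM, with 2 of 6 at 0.

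Of the 48 subunit genes, 4 rose in EF and 1 fell. The rises were Suz12 (1.48-fold), Smarcc1 (1.43-fold), Actl6a (1.33-fold) and Ss18 (1.30-fold), and the fall was Cbx6 (0.801-fold). The remaining 43 did not pass edgeR's quasi-likelihood test at an adjusted p under 0.05. Rises made up 8.33% of the members, against 3.83% of all tested genes, and falls made up 2.08% against 4.99%. Taken in both directions, 10.4% of the members were called and 8.82% of all tested genes, so the share of members called was near the background. Both EF libraries lay above both noEF libraries in 18 of the 48 members, and in 27.6% of all tested genes, and below them in 7 members, and in 26.8% of all tested genes. The same 5 members were called by DESeq2 and by limma-voom. The members' median log2 fold change was 0.10 and 64.6% of them were above 0, against a median of 0.01 and 51.1% over all tested genes. At an unadjusted edgeR p under 0.05, 10 members were higher and 4 lower. Of all tested genes, 11.3% were higher and 12.5% lower at that level. With length and GC trends removed, 5 members were higher and 4 lower, so the upward lean depended in part on that setting.

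**Figure D1:**
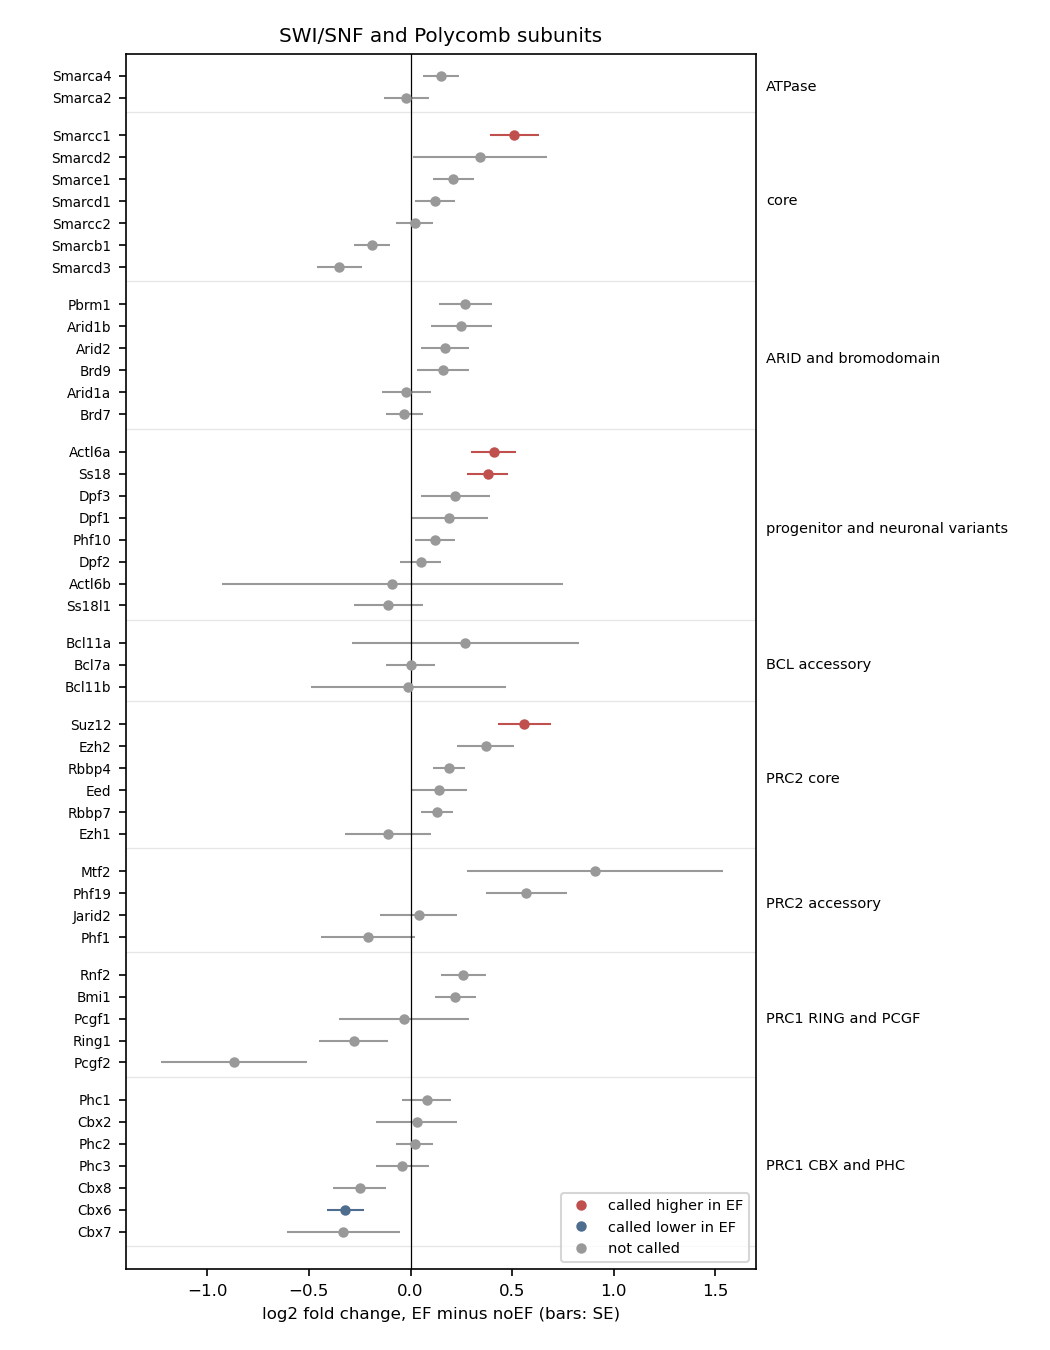
Log2 fold change of EF minus noEF for each of the 48 subunit genes, grouped by role, with the standard error as bars (2 libraries per group). Suz12, Smarcc1, Actl6a and Ss18 are the genes called higher, at 0.56, 0.51, 0.41 and 0.38, and Cbx6 at -0.32 is the gene called lower; Mtf2 and Actl6b have wide errors.

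Upstream sequence is shown for the called genes Suz12, Smarcc1, Actl6a and Cbx6, and for Ezh2 as the catalytic partner of Suz12. Each run holds the 250 bases before the RefSeq transcription start (GRCm38.p6), 5′ to 3′ on the strand of the gene, with matches to 5 motifs in capitals. The motifs, searched on both strands, were the E2F letters TTTCCCGC and TTTGGCGC, the CCAAT box, the GC box GGGCGG, the NRF1 letters GCGCATGCG and the E-box CACGTG. No matches overlapped in these windows. The windows of Ezh2, Smarcc1, Actl6a and Cbx6 lie inside the gene spans of GENCODE M21, which begin further upstream than the RefSeq starts. For Suz12 the starts are the same. Motif positions are counted from the RefSeq start.
Suz12 (chr11:79992856-79993105, plus strand): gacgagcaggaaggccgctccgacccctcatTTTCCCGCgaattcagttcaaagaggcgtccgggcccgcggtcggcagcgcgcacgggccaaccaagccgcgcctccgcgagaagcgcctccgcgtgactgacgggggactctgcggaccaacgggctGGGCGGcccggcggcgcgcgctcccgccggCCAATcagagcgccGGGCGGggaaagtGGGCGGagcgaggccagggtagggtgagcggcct
Ezh2 (chr6:47595031-47595280, minus strand): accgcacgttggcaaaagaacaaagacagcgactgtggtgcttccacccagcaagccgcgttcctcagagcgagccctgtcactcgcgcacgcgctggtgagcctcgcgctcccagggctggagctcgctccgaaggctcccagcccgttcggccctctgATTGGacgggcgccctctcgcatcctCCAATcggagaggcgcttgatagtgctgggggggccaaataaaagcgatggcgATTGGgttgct
Smarcc1 (chr9:110131774-110132023, plus strand): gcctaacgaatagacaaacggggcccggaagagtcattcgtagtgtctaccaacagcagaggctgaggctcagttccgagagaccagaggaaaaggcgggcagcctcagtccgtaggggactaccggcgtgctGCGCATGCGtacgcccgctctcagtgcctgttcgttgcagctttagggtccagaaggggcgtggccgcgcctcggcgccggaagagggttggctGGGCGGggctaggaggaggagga
Actl6a (chr3:32708296-32708545, plus strand): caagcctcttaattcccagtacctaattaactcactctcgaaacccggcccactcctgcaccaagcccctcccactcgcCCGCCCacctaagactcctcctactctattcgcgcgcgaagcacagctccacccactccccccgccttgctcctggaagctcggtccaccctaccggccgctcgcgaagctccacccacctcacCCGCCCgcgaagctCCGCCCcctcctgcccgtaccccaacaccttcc
Cbx6 (chr15:79834334-79834583, minus strand): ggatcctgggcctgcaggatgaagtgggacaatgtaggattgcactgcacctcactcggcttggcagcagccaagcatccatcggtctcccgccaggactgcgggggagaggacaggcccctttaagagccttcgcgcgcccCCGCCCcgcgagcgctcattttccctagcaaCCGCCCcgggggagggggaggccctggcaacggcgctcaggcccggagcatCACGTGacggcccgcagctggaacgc

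Suz12 was the one gene of the 5 with E2F letters, starting 219 bases before the start of transcription, and it also had a CCAAT box 61 bases before it. Ezh2 had 3 CCAAT boxes and no GC box, Smarcc1 had NRF1 letters 117 bases before the start, Actl6a had 3 GC boxes, and Cbx6 had an E-box 26 bases before the start beside 2 GC boxes. E2F letters stood in 4 of 42 member windows (Brd7, Phf19, Smarcd1 and Suz12), or 9.52%, against 1.35% of 27025 windows, 1 for each gene outside chromosome 18. GC boxes stood in 78.6% of the member windows and 32.9% of all windows, CCAAT boxes in 31.0% and 34.5%, E-boxes in 19.0% and 6.05%, and NRF1 letters in 4.76% and 1.49%. The windows of all genes include those of predicted genes and of genes that did not pass the filter on low counts, whereas all members passed. Shares among genes that passed were not computed, so the differences cannot be assigned to these complexes. A match is a string of letters and shows no binding.

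Among the core SWI/SNF subunits, 1 of the scaffold pair SMARCC1 and SMARCC2 was called. Smarcc1 (ENSMUSG00000032481, GRCm38 chromosome 9, 110117708 to 110240178) had 73.3 and 60.1 CPM in the EF libraries, against 43.4 and 50.1 CPM in the noEF libraries. Both EF libraries were above both noEF libraries, and the log2 fold change was 0.51 (SE 0.12, edgeR adjusted p = 0.0173). Smarcc2, its paralogue, had 94.5 and 90.8 CPM in EF and 88.2 and 95.2 CPM in noEF, groups that overlapped, with a log2 fold change of 0.02 (SE 0.09). Per kb of exon Smarcc2 was the more abundant of the pair, and Smarcc1 held 35.5% and 31.9% of their summed level in EF and 25.9% and 27.2% in noEF. Without EF 1, the log2 fold change of Smarcc1 was 0.36 and the call was lost (edgeR adjusted p = 0.246).

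The ATPase genes did not pass. Smarca4 had 138 and 137 CPM in EF and 128 and 121 CPM in noEF (log2 fold change 0.15, SE 0.09). Both EF libraries were above both noEF libraries. Smarca2 had 78.8 and 80.4 CPM in EF and 72.2 and 88.9 CPM in noEF, overlapping groups. Smarca4 was the main ATPase transcript per kb of exon, at 79.4% and 78.9% of the pair in EF and 79.6% and 74.9% in noEF.

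Of the other core genes, Smarcd3 came closest to the threshold on the low side. It encodes a subunit known from heart and muscle development that neural tissue also carries, and it had 52.7 and 59.4 CPM in EF and 75.7 and 67.3 CPM in noEF. The EF libraries were both below the noEF libraries, and the log2 fold change of -0.35 (SE 0.11) missed the threshold (edgeR adjusted p = 0.0542). Exons of Smarcd3 overlap Chpf2 on the opposite strand over 48.2% of their length, and with no strand setting given the shared reads cannot be assigned. It was called lower in 4 of 13 alternatives, among them the removal of a length and GC trend from each library (edgeR adjusted p = 0.0263). Smarcd1 had 59.0 and 58.2 CPM in EF and 51.9 and 56.0 CPM in noEF. Per kb of exon it was the most abundant of these paralogues in EF 1, EF 2 and noEF 2. In noEF 1 Smarcd3 was ahead, at 48.8% against 42.6% for Smarcd1. Smarcd2 had 7.26 and 10.6 CPM in EF and 9.37 and 4.79 CPM in noEF. The groups of Smarcd2 overlapped, and it was called higher without noEF 1 (0.90, edgeR adjusted p = 0.0446), where the lone noEF library is assumed to vary like the others.

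Smarcb1, the subunit lost in rhabdoid tumours, was slightly lower, at 117 and 122 CPM in EF and 142 and 131 CPM in noEF (log2 fold change -0.19, SE 0.09, edgeR adjusted p = 0.206). It passed once the length and GC trend was removed, at -0.30 (edgeR adjusted p = 0.0299). Smarce1, which carries an HMG domain, had 63.4 and 60.7 CPM in EF and 55.5 and 52.0 CPM in noEF, and its log2 fold change of 0.21 (SE 0.10) did not pass.

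The ARID and bromodomain members, which help to set the type of SWI/SNF complex, did not pass either. Arid1a and Arid1b mark the canonical BAF complex, Arid2, Pbrm1 and Brd7 the PBAF complex, and Brd9 the non-canonical one. Pbrm1 had 47.3 and 46.0 CPM in EF and 34.8 and 42.6 CPM in noEF (log2 fold change 0.27, SE 0.13, edgeR adjusted p = 0.207). With 1 library left out, its log2 fold change ran from 0.13 (without noEF 1) to 0.41 (without noEF 2). Arid1b had 31.2 and 29.3 CPM in EF and 22.3 and 28.8 CPM in noEF, and Arid2 had 46.5 and 41.2 CPM in EF and 38.5 and 39.3 CPM in noEF. For these 3 genes both EF libraries lay above both noEF libraries. Arid1a, the most abundant ARID transcript per kb in every library, had 69.2 and 80.9 CPM in EF and 68.0 and 84.2 CPM in noEF. Brd7 had 80.7 and 80.8 CPM in EF and 80.6 and 84.2 CPM in noEF, and Brd9 had 40.9 and 34.8 CPM in EF and 31.1 and 36.6 CPM in noEF. Groups overlapped for Arid1a, Brd7 and Brd9.

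Of the 8 variants that are exchanged between progenitors and neurons, 2 rose in edgeR, both of them progenitor forms, where 3.83% of all tested genes rose. Of the 4 neuronal forms 0 passed, 0 had an unadjusted p under 0.05 and 0 were called by DESeq2 or limma-voom. Whether progenitor and neuronal forms differed in their response was not tested. Actl6a (ENSMUSG00000027671, chromosome 3, 32706298 to 32726973), the actin-like subunit of progenitors, had 50.1 and 51.7 CPM in EF and 38.3 and 38.0 CPM in noEF. The groups were apart by 0.41 on the log2 scale (SE 0.11, edgeR adjusted p = 0.0323). Its neuronal counterpart Actl6b was nearly silent, with 12 and 29 counts in EF and 22 and 19 counts in noEF (0.336 and 0.831 CPM against 0.676 and 0.565 CPM), overlapping groups. Actl6a made up 99.4% and 98.6% of the pair per kb of exon in EF and 98.4% and 98.7% in noEF. The call of Actl6a was lost without EF 1 (0.44, edgeR adjusted p = 0.136) and without EF 2 (0.39, edgeR adjusted p = 0.127). Exons of Actl6a share 11.6% of their length with Mrpl47 on the opposite strand.

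Ss18 (ENSMUSG00000037013, chromosome 18, 14624198 to 14682914), the other progenitor form that rose, had 79.6 and 76.3 CPM in EF and 58.8 and 60.8 CPM in noEF. Its groups did not overlap and its log2 fold change was 0.38 (SE 0.10, edgeR adjusted p = 0.0247). Ss18l1, the neuronal counterpart and a calcium-responsive coactivator, had 14.5 and 13.2 CPM in EF and 14.2 and 15.8 CPM in noEF, with a log2 fold change of -0.11 (SE 0.17). Ss18 made up 71.7% and 72.7% of this pair per kb of exon in EF and 65.6% and 64.0% in noEF. Once length and GC trends were removed, the log2 fold change of Ss18 was 0.23 and no longer passed (edgeR adjusted p = 0.0943). It also lost the call without EF 1 (0.35, edgeR adjusted p = 0.196), without EF 2 (0.41, edgeR adjusted p = 0.0615) and without noEF 1 (0.36, edgeR adjusted p = 0.0598).

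The PHD finger variants did not pass. Phf10 had 84.1 and 91.9 CPM in EF and 78.2 and 83.4 CPM in noEF, and Dpf2 had 79.3 and 73.2 CPM in EF and 74.4 and 72.5 CPM in noEF. The neuronal forms were lower in level: Dpf1 had 15.3 and 13.5 CPM in EF and 14.3 and 10.8 CPM in noEF, and Dpf3 had 24.6 and 21 CPM in EF and 22.9 and 16.4 CPM in noEF. Groups overlapped for Dpf1, Dpf2 and Dpf3. Per kb of exon Phf10 held 45.1% and 50.0% of the 4 in EF and 44.9% and 49.9% in noEF, and Dpf2 held 32.1% and 30.1% in EF and 32.3% and 32.8% in noEF.

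The BCL subunits did not pass. Bcl7a had 37.3 and 38.4 CPM in EF and 37.6 and 37.9 CPM in noEF (log2 fold change 0.00, SE 0.12). Bcl11a and Bcl11b, zinc finger factors of cortical neurons, were close to silent. Bcl11a had 72 and 34 counts in EF and 46 and 36 counts in noEF, and Bcl11b had 63 and 53 counts in EF and 46 and 64 counts in noEF.

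**Figure D2:**
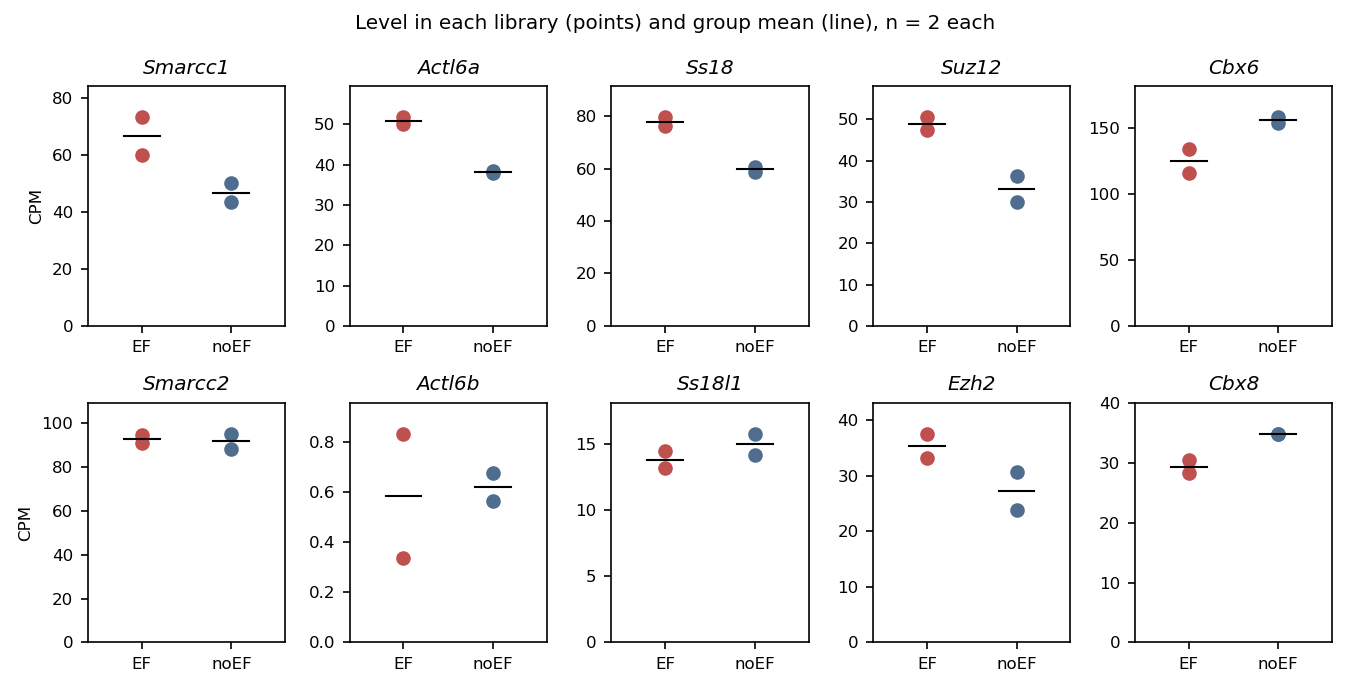
CPM of each library (points) with the group mean (line) for the 5 called subunits in the upper row and for 5 related genes in the lower row, EF left and noEF right, n = 2 each. Smarcc1, Actl6a, Ss18 and Suz12 have both EF libraries above both noEF libraries and Cbx6 has both below, while the groups of Smarcc2, Actl6b and Ss18l1 overlap.

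In PRC2, Suz12 rose. Suz12 (ENSMUSG00000017548, chromosome 11, 79993106 to 80034123) had 50.5 and 47.4 CPM in EF and 30.0 and 36.2 CPM in noEF. The groups did not overlap, and the difference of 0.56 on the log2 scale (SE 0.13, edgeR adjusted p = 0.0132) had the smallest p of the 48 members. Without EF 1 it was 0.52 with an edgeR adjusted p of 0.0807. Ezh2, the catalytic subunit, had 33.3 and 37.6 CPM in EF and 23.9 and 30.7 CPM in noEF, also without overlap. Its log2 fold change of 0.37 (SE 0.14) did not pass (edgeR adjusted p = 0.124). With 1 library left out, the log2 fold change of Ezh2 ran from 0.20 (without noEF 1) to 0.56 (without noEF 2).

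The other core genes of PRC2 did not pass. Eed had 26.5 and 31.0 CPM in EF and 25.1 and 27.1 CPM in noEF, overlapping groups. Ezh1, the enzyme of resting cells, had 9.55 and 8.08 CPM in EF and 10.8 and 8.27 CPM in noEF, also overlapping. Ezh2 was the main enzyme transcript per kb of exon, at 79.5% and 83.8% of the pair in EF and 71.1% and 80.6% in noEF. The histone chaperones Rbbp4 and Rbbp7, which PRC2 shares with other complexes, were the most abundant members per kb. Rbbp4 had 380 and 365 CPM in EF and 320 and 334 CPM in noEF (log2 fold change 0.19, SE 0.08, edgeR adjusted p = 0.170), and Rbbp7 had 226 and 221 CPM in EF and 204 and 205 CPM in noEF (0.13, SE 0.08). EF was above noEF in both without overlap.

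Of the accessory subunits that direct PRC2 to its targets, Phf19 had 10.5 and 10.6 CPM in EF and 6.48 and 7.70 CPM in noEF. Its log2 fold change of 0.57 (SE 0.20) did not pass (edgeR adjusted p = 0.0908). Mtf2 had a larger value, 0.91, with a larger SE of 0.63. Its levels were 17.4 and 16.3 CPM in EF and 13.2 and 4.70 CPM in noEF, so noEF 2, with 158 counts against 431 in noEF 1, set that value. Without noEF 2 the log2 fold change of Mtf2 was 0.34 (edgeR adjusted p = 0.351), and without noEF 1 it was 1.84 (edgeR adjusted p = 4.14e-10). Jarid2 had 18.6 and 18.9 CPM in EF and 14.6 and 21.9 CPM in noEF, overlapping groups. Phf1 had 6.25 and 5.82 CPM in EF and 6.94 and 7.05 CPM in noEF, and 39.3% of its exon length is shared with Cuta on the opposite strand.

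In PRC1, Cbx6 fell and 0 genes rose in edgeR (2 of 12 were higher at an unadjusted p under 0.05, and 0 rose by DESeq2 or limma-voom). Cbx6 (ENSMUSG00000089715, chromosome 15, 79823896 to 79834688), a chromodomain reader of the PRC2 mark, had 116 and 134 CPM in EF and 158 and 154 CPM in noEF. Both EF libraries were below both noEF libraries, and the log2 fold change was -0.32 (SE 0.09, edgeR adjusted p = 0.0437). That call lay close to the threshold: it was lost with library totals in place of TMM (-0.23, edgeR adjusted p = 0.115), without EF 1 (-0.22, edgeR adjusted p = 0.398) and without noEF 1 (-0.30, edgeR adjusted p = 0.0913). Exons of Cbx6 share 5.3% of their length with Npcd on the same strand.

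The other CBX genes did not pass. Cbx8 had 30.5 and 28.3 CPM in EF and 34.8 and 34.9 CPM in noEF (log2 fold change -0.25, SE 0.13), groups that did not overlap. Cbx2 had 12.8 and 10.4 CPM in EF and 9.99 and 12.7 CPM in noEF, and Cbx7 had 4.12 and 7.22 CPM in EF and 7.62 and 6.66 CPM in noEF, both with overlap. Cbx6 was the main CBX transcript among the 4 per kb of exon in every library, with 47.7% and 53.0% in EF and 53.5% and 51.7% in noEF.

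The ubiquitin ligase genes of PRC1 differed in sign without passing. Rnf2, the main ligase, had 73.0 and 62.6 CPM in EF and 57.1 and 56.4 CPM in noEF (log2 fold change 0.26, SE 0.11, edgeR adjusted p = 0.153). Ring1 had 11.6 and 13.3 CPM in EF and 14.2 and 16.0 CPM in noEF (-0.28, SE 0.17, edgeR adjusted p = 0.354). Their groups did not overlap, in opposite directions.

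The 3 PCGF genes did not pass. Bmi1, which neural stem cells need for self-renewal, had 105 and 98.7 CPM in EF and 81.0 and 94.2 CPM in noEF (log2 fold change 0.22, SE 0.10, edgeR adjusted p = 0.195). Pcgf2, its close paralogue, had 64 and 71 counts in EF and 109 and 123 counts in noEF, or 1.79 and 2.03 CPM against 3.35 and 3.66 CPM. The log2 fold change of Pcgf2, -0.87 (SE 0.36, edgeR adjusted p = 0.157), was the lowest of the 48 members and did not pass. Pcgf1, of the variant PRC1, had 3.75 and 3.01 CPM in EF and 3.16 and 3.72 CPM in noEF.

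The PHC genes, which polymerise PRC1, had group means that differed by less than the spread of at least 1 group. Phc1 had 44.2 and 39.1 CPM in EF and 38.8 and 40.1 CPM in noEF, Phc2 had 147 and 159 CPM in EF and 157 and 146 CPM in noEF, and Phc3 had 34.7 and 33.5 CPM in EF and 33.2 and 37.3 CPM in noEF. Phc2 held most of the PHC level per kb of exon, between 66.8% and 70.7% in each library.

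**Figure D3:**
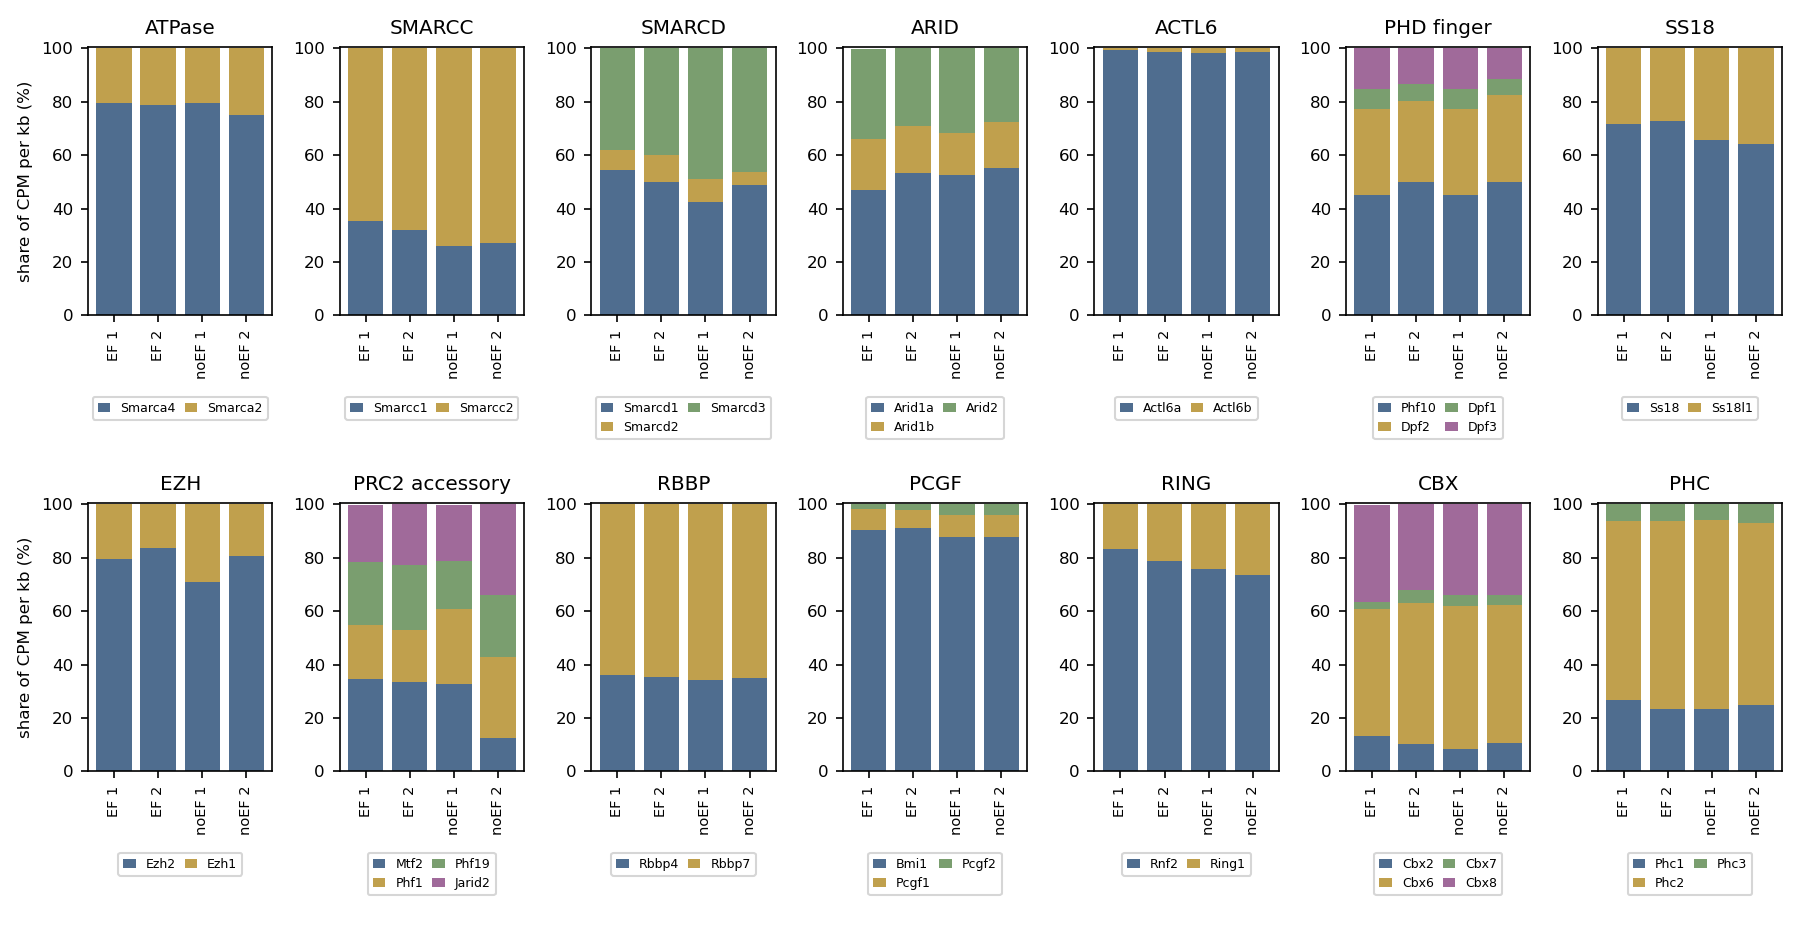
Share of each alternative subunit in the summed CPM per kb of exon of its group of paralogues or alternatives, by library, with EF left of noEF and bars from 0 to 100%. The Smarcc1 and Ss18 segments are larger in both EF libraries, the Actl6a bar is nearly full in all 4, and the Mtf2 segment is short in noEF 2 at 12.4%.

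Subunit choice was read from 22 ratios of alternative subunits, each taken within a library per kb of exon so that library scaling cancels. Ss18l1 over Ss18 had a log2 ratio of -1.34 and -1.41 in EF and of -0.93 and -0.83 in noEF, a difference of -0.49. Smarcc2 over Smarcc1 stood at 0.86 and 1.09 in EF and at 1.52 and 1.42 in noEF, also a difference of -0.49. Both ratios were lower in both EF libraries. Length and GC trends of a library do not cancel in such a ratio. With those trends removed, the differences were -0.38 for Ss18l1 over Ss18 and -0.41 for Smarcc2 over Smarcc1.

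The neuronal to progenitor ratio of the actin-like pair, Actl6b over Actl6a, was -7.35 and -6.09 in EF and -5.96 and -6.21 in noEF, and the groups overlapped. That of the PHD finger genes, Dpf1 and Dpf3 over Phf10 and Dpf2, was -1.76 and -2.00 in EF and -1.76 and -2.26 in noEF, again with overlap. Of these 3 neuronal to progenitor ratios, that of the SS18 pair was the one with groups apart.

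In Polycomb complexes, Pcgf2 over Bmi1 had a log2 ratio of -5.70 and -5.43 in EF and of -4.42 and -4.51 in noEF, a difference of -1.09. Ring1 over Rnf2 was at -2.31 and -1.89 in EF and at -1.66 and -1.47 in noEF, a difference of -0.53. Ezh1 over Ezh2 was at -1.96 and -2.37 in EF and at -1.30 and -2.05 in noEF, and its groups overlapped. The largest difference was -1.31 for Phf1 over Mtf2. Without noEF 2, where the Mtf2 count was low, it was -0.55. The ratio was -0.77 and -0.78 in EF and -0.22 in noEF 1.

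Of the 22 ratios, 9 (40.9%) had groups that did not overlap, against 52.6% of the ratios of all pairs of tested genes with a count in every library. With 2 libraries a group, an exact two-sided permutation test cannot give a p below 0.333, and the smallest p adjusted over the 22 ratios was 0.814. The share of subunit ratios with groups apart was not above that of all gene pairs. Among the ratios with groups apart, 2 lost their difference or its sign once length and GC trends were removed. Pcgf1 over Bmi1 went from -0.25 to 0.01, and Rbbp7 over Rbbp4 from -0.06 to 0.09.

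**Figure D4:**
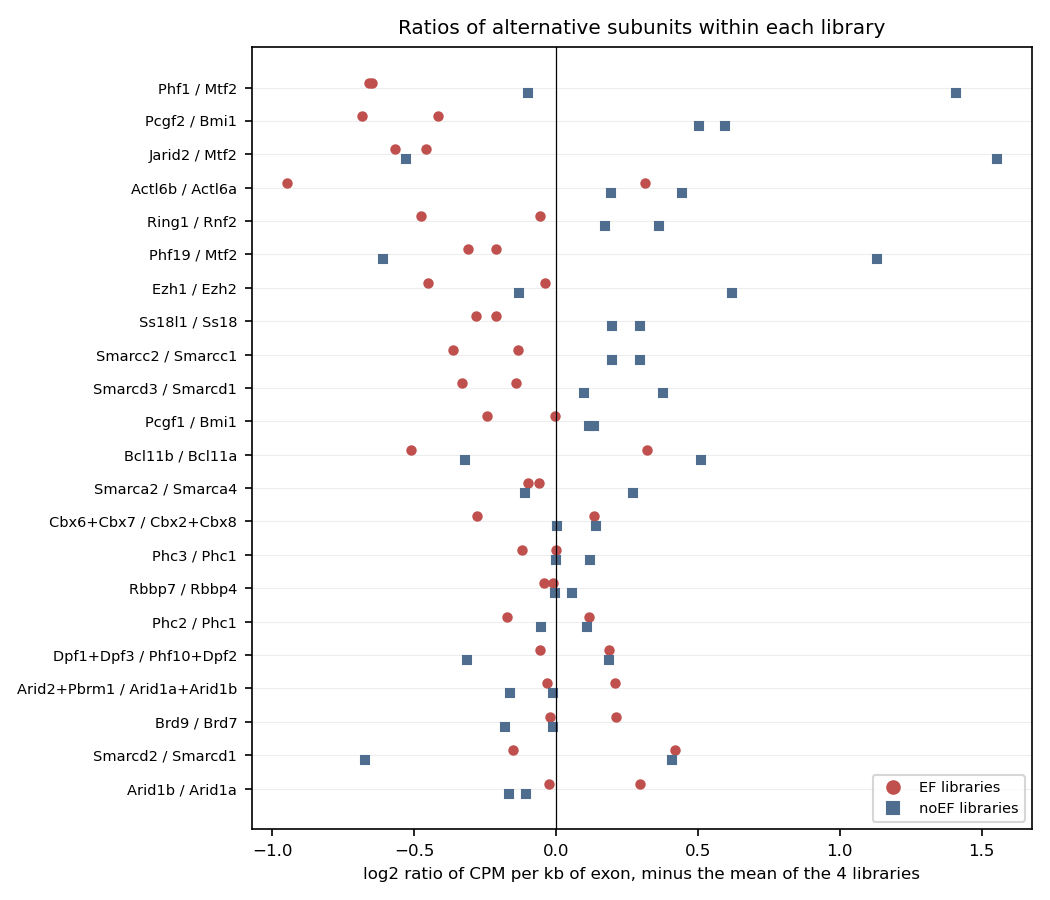
Log2 ratio of CPM per kb of exon for 22 pairs or sums of alternative subunits in each library, shown as the distance from the mean of the 4 libraries, with circles for EF and squares for noEF. Ratios are ordered by the difference of EF minus noEF, and in 9 of the 22 the groups are apart.

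Of 76 other chromatin genes tested, 6 rose in EF and 0 fell in edgeR (1 was lower at an unadjusted p under 0.05). DESeq2 called 7 higher and limma-voom 6, and both called 0 lower. The 7.89% that rose in edgeR stood beside 3.83% of all tested genes called higher and 8.82% called in either direction. Bicra, a subunit of the non-canonical SWI/SNF complex that also holds Brd9, had 14.1 and 11.4 CPM in EF and 8.27 and 7.20 CPM in noEF (log2 fold change 0.72, SE 0.20, edgeR adjusted p = 0.0332). It was the one called gene of 6 in the list of other SWI/SNF-related genes. Of 17 other remodellers, Hells, a helicase that supports DNA methylation, rose by 1.24 (SE 0.16, edgeR adjusted p = 2.64e-04), with 24.1 and 22.7 CPM in EF and 9.77 and 10.1 CPM in noEF.

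Chromatin genes tied to DNA replication held the other rises in edgeR. Of 6 such genes, Uhrf1 and Dnmt1, which copy DNA methylation, rose by 0.85 and 0.62, and Chaf1a and Chaf1b, the histone chaperone of replication forks, rose by 0.82 and 0.68 (edgeR adjusted p = 0.00113, 0.00166, 0.00738 and 0.0218). The median log2 fold change of this list was 0.65, against 0.01 over all tested genes.

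None of the 14 other PRC1 genes, 3 other PRC2 genes, 6 PR-DUB genes, 4 demethylases and acetyltransferases of lysine 27 of histone H3, 11 Trithorax genes or 9 NuRD genes passed in edgeR, DESeq2 or limma-voom. At an unadjusted p under 0.05 in edgeR, 3 of the PRC1 and 2 of the NuRD genes were higher and 1 of the Trithorax genes was lower. The smallest p in these lists belonged to Hdac2, a deacetylase of NuRD, at 0.25 (edgeR adjusted p = 0.0829). Kdm6b, which removes the PRC2 mark, had 35.7 and 38.0 CPM in EF and 38.0 and 37.2 CPM in noEF. It was chosen after its values were seen.

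Markers of dividing cells moved with these rises. All 8 of 8 were called higher, with summed levels of 1210 and 1130 CPM in EF and of 729 and 720 CPM in noEF and a median log2 fold change of 0.78. Of 8 astrocyte markers, 4 were called lower, and Slc1a3 (0.16), Aldh1l1 (0.03), S100b (-0.02) and Slc1a2 (-0.08) did not pass, by log2 fold change. The 8 had summed levels of 5570 and 5300 CPM in EF and 6100 and 6320 CPM in noEF. Of 7 markers of the oligodendrocyte lineage, 1 (Pdgfra) was called lower. The part of these cell types in the differences of the subunit genes was not tested. In bulk tissue, fewer cells of a type and less RNA per cell cannot be told apart.

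Calls among the subunits depended on the libraries. Without EF 1 edgeR called 0 of the 48 members (6 higher and 0 lower at an unadjusted p under 0.05), when it called 3.75% of all genes. Without EF 2 it called 2 members higher and 1 lower, with 9.18% of all genes called. Without noEF 1 it called 5 higher and 0 lower (8 and 2 at an unadjusted p under 0.05), with 7.35% of all genes called. Without noEF 2 it called 6 higher and 2 lower, with 14.5% of all genes called. The direction of Suz12, Smarcc1, Actl6a, Ss18 and Cbx6 was the same in all 13 alternatives. Library totals in place of TMM gave 8 higher members (Ezh2, Rbbp4, Phf19 and Rnf2 beside the 4 rises above) and 0 lower (3 lower at an unadjusted p under 0.05), while all genes split into 1138 higher and 505 lower, against 546 and 712 with TMM. With the length and GC trend removed there were 3 higher members (Suz12, Smarcc1 and Actl6a) and 3 lower ones (Cbx6, Smarcd3 and Smarcb1), that is 6.25% in each direction, against 4.16% higher and 6.21% lower among all genes.

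**Figure D5:**
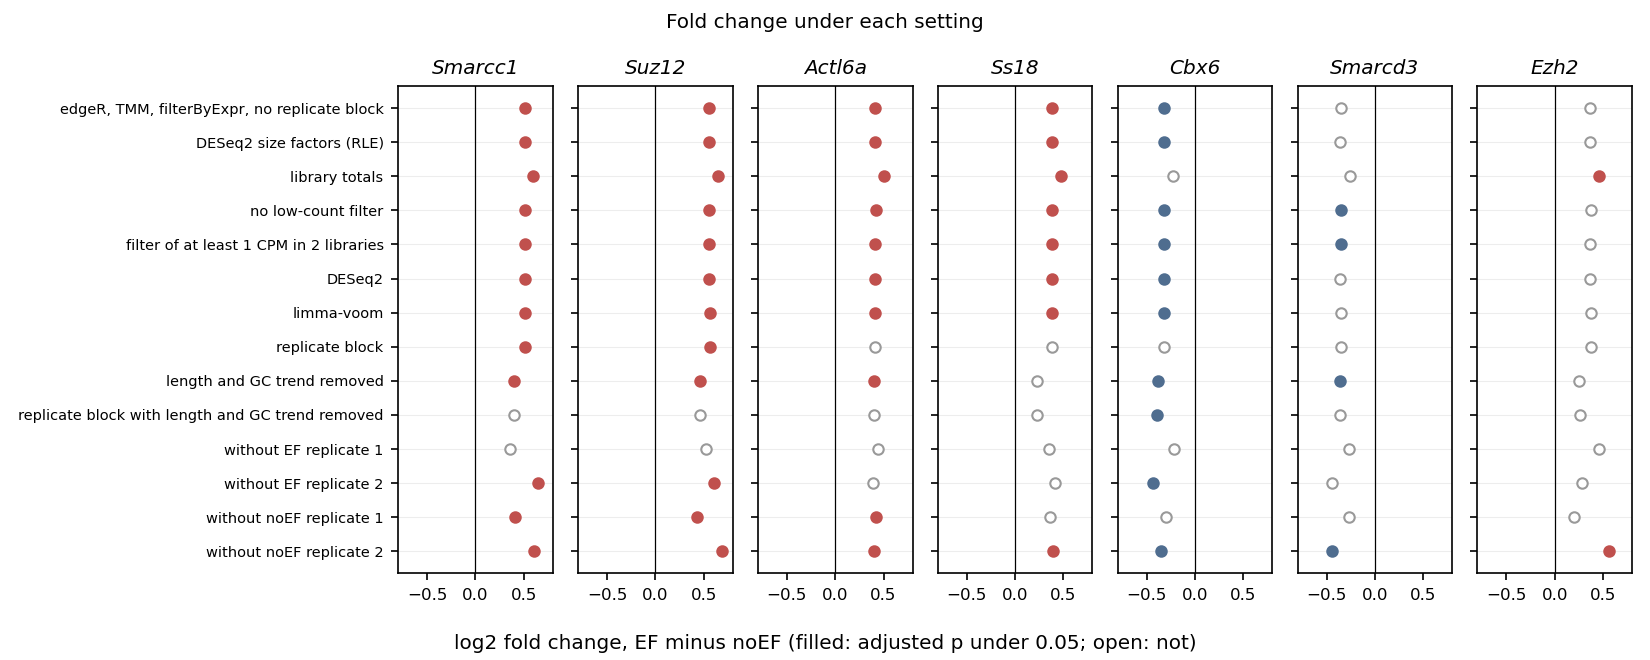
Log2 fold change of EF minus noEF for 7 subunit genes under the reported fit (top) and 13 alternatives, filled where the adjusted p was under 0.05. Suz12 and Smarcc1 keep their call in 11 of 13 alternatives, Actl6a and Cbx6 in 9 and Ss18 in 7, and no gene shown changes direction.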

How the data were processed

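Poly(A) RNA of 4 libraries was measured by RNA-seq. As deposited, the values are raw counts of reads for each gene, in whole numbers. The submitters' processing notes name the build GRCm38 and, without roles, DESeq2 1.44.0, StringTie 2.2.1 and HISAT2 2.0.4. Which counter, annotation and strand setting was used is not stated in them. Of 22036 Ensembl identifiers, 22022 were found in GENCODE M21, from which exon length and overlaps were taken.

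Counts were fitted with edgeR 4.0.16 in R 4.3.3 (TMM, filterByExpr, robust quasi-likelihood) as EF against noEF, with Benjamini-Hochberg adjustment over 14263 genes and a threshold of 0.05. Log2 fold changes are EF minus noEF. Alternatives used DESeq2 1.42.0 and limma-voom (limma 3.58.1), other scalings and filters, a replicate block, removal of length and GC trends, and each library left out. Fits were tested on simulated data. Precision is limited by 2 libraries a group. All 48 members were described by role, and called genes were given in full. Members, lists and motifs were chosen with earlier results of these data known.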

Additional observations from a re-analysis of the deposited data

How the results depend on the processing

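The members called were 4 higher and 1 lower in EF, against 546 and 712 over all tested genes. DESeq2, its size factors and limma-voom called the same members. Library totals gave 8 higher and 0 lower members and 1138 higher genes overall. Without a low-count filter there were 4 higher and 2 lower members, and 915 higher and 1203 lower genes. A filter of 1 CPM also gave 2 lower members, and removal of length and GC trends gave 3. Same-numbered libraries did not deviate together (correlation of deviations -0.0898). With 2 libraries a group, that value cannot exclude a pairing of the samples. EF 2 is the library labelled E3, and the replicate block set it beside noEF 2. With a replicate block edgeR called 2 members higher and 0 lower (7 and 3 at an unadjusted p under 0.05), and 410 genes higher and 568 lower. The calls lost with it were Actl6a (0.41, edgeR adjusted p = 0.0700), Ss18 (0.38, edgeR adjusted p = 0.0548) and Cbx6 (-0.32, edgeR adjusted p = 0.0783). The replicate block with both trends removed gave 0 higher members and 1 lower (5 and 4 at an unadjusted p under 0.05), and 308 and 460 genes. There the lost calls were Smarcc1 (0.40, edgeR adjusted p = 0.0802), Suz12 (0.46, edgeR adjusted p = 0.0556), Actl6a (0.40, edgeR adjusted p = 0.0674) and Ss18 (0.23, edgeR adjusted p = 0.172). Leaving out 1 library gave 0 to 6 higher and 0 to 2 lower members, and 211 to 825 higher and 324 to 1237 lower genes. The cause of these shifts was not tested.

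None of the 5 called members changed direction under any of the 13 alternatives, and other members did. With library totals, log2 fold changes became 0.07 for Smarca2, Arid1a and Bcl11b, 0.06 for Brd7 and Pcgf1 and 0.04 for Phc3. Bcl7a came to 0.00 with DESeq2 and with its size factors. With length and GC trends removed, values were -0.09 for Bcl7a, -0.02 for Dpf2 and Smarcc2, -0.07 for Jarid2, -0.04 for Phc2 and 0.16 for Pcgf1, and with the replicate block added -0.09 for Bcl7a, -0.02 for Dpf2, -0.01 for Smarcc2, -0.05 for Jarid2, -0.04 for Phc2 and 0.16 for Pcgf1. Leaving out 1 library gave ranges across 0, or to 0, for 19 members. These ran from -0.88 to 0.42 for Actl6b, -0.17 to 0.13 for Arid1a, -0.35 to 0.70 for Bcl11a, -0.21 to 0.20 for Bcl11b, -0.02 to 0.02 for Bcl7a, -0.13 to 0.20 for Cbx2, -0.79 to 0.02 for Cbx7, -0.01 to 0.41 for Dpf1, 0.00 to 0.11 for Dpf2 and -0.02 to 0.48 for Dpf3. They ran from -0.31 to 0.09 for Ezh1, -0.23 to 0.35 for Jarid2, -0.19 to 0.13 for Pcgf1, -0.01 to 0.16 for Phc1, -0.05 to 0.07 for Phc2, -0.13 to 0.03 for Phc3, -0.16 to 0.13 for Smarca2, -0.04 to 0.06 for Smarcc2 and -0.08 to 0.90 for Smarcd2.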
